A study of Homo sapiens with 6 samples.

Results

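The 5 genes described here were CPA4 and 4 genes that lie near it in the imprinted region of chromosome 7q32, namely CPA5, MEST, COPG2 and TSGA13. They were matched by gene symbol and filled 4 of the 54644 rows of the gene table, because COPG2 and TSGA13 shared a row. CPA4 was chosen by its higher level in the CTTN-overexpressing cells of this very contrast, so its values are given as a description with no test. The other genes were chosen by their position, so their tests are given. The question was whether the higher level of CPA4 was local to the gene or extended to its neighbours. SKBR3, a HER2-amplified human breast adenocarcinoma cell line of epithelial type, had been stably infected with lentivirus and selected with puromycin. The 3 control libraries came from cells with the empty pLVX vector, and the 3 CTTN libraries from cells with pLVX-CTTN, which carries the cDNA of cortactin, an actin-binding protein. The labels name 3 biological replicates per group but not whether they came from separate infections, so the p-values measure the spread between these libraries. Clones are not named either.

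CPA4 encodes a secreted zinc metallocarboxypeptidase that removes hydrophobic amino acids from the C-terminal end of peptides. It sits in a cluster with CPA5, which is known mainly from testis, and CPA1, a digestive enzyme of the pancreas. The cluster borders the imprinted MEST domain. There, an allele inherited from the father is read at MEST, a predicted hydrolase of the alpha/beta fold, and at its antisense RNA MESTIT1, while CPA4 and KLF14 are read mainly from the maternal copy in some tissues. COPG2 encodes a gamma subunit of the COPI coat, which covers vesicles that return from the Golgi to the endoplasmic reticulum, and TSGA13 is a testis gene. MEST has an imprinted promoter in a CpG island and another promoter further upstream that is not imprinted. Alleles cannot be told apart in gene counts, so imprinting itself was not measured.

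In GRCh38, the build of the deposited loci, CPA4 spanned 7:130293133-130324180 and CPA5 followed at 7:130344815-130368730, with 20.6 kb between them. RefSeq (GRCh38.p14) places MEST at 7:130486175-130506465 and COPG2 at 7:130506238-130668748 on the opposite strand, so that their 3′ ends overlap. Promoter sequences of 4 of the 5 genes were found in the RefSeq table, each from 250 bases before the start to 50 after it. CPA5 had no entry. MEST had 5 entries. Shown are 5 promoters from 3 genes, since the results below turn on which start sites carry the counts. The first 2 MEST entries begin 5910 and 5738 bases before the last, close to the spacing of the annotated starts of ENST00000341441, which held most MEST counts, and ENST00000427521. Capitals mark matches on either strand to TATAAA, to the AP-1 motif TGANTCA (N is any base) and to the GC box GGGCGG.
CPA4, chr7:130292911-130293210, plus strand: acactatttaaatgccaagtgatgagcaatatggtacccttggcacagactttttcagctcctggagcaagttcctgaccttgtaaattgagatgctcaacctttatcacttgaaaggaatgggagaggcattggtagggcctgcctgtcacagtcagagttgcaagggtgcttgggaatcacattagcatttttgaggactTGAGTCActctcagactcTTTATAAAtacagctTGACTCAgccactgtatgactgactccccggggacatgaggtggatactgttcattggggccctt
MEST upstream, first entry, chr7:130485925-130486224, plus strand: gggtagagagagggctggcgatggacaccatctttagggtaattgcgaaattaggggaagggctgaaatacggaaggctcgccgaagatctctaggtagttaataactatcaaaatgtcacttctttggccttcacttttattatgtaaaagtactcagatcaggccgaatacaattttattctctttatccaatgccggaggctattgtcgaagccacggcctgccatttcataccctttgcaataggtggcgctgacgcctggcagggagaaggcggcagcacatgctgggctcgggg
MEST upstream, second entry, chr7:130486097-130486396, plus strand: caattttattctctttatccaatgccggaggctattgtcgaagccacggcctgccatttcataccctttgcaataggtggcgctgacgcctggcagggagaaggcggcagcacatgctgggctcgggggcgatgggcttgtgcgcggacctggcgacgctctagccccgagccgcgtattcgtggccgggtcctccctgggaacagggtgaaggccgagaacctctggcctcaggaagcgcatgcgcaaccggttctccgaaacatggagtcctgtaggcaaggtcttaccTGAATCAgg
MEST downstream, chr7:130491835-130492134, plus strand: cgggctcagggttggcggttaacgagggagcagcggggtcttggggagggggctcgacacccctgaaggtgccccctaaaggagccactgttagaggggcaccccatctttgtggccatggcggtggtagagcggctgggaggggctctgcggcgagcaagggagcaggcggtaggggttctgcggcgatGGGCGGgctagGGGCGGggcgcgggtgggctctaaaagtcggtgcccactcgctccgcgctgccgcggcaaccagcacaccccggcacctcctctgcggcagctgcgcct
COPG2, chr7:130668699-130668998, minus strand: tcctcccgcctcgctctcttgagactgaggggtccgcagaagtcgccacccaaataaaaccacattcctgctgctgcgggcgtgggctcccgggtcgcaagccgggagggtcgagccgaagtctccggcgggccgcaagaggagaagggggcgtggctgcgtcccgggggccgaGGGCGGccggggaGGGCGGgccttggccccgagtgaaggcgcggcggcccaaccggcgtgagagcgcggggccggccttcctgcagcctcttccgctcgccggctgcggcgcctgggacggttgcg

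The CPA4 promoter held TGAGTCA and TGACTCA, which begin 48 and 15 bases before the start, with the TATA box between them, 28 bases before the start. TTTATA, the match on the other strand, overlaps that TATA box. Of 34943 RefSeq promoters of this length, 11.6% held a TATA box, 7.7% held TGANTCA and 0.5% held it at least 2 times. CPA4 had 1 CpG and no GC box, and 11.0% of promoters had as few CpGs or fewer, whereas the median was 14. The downstream MEST promoter had 25 CpGs and the COPG2 promoter 37, each with 2 GC boxes, a motif that 44.9% of promoters held at least once. The first upstream MEST promoter had 13 CpGs and none of the motifs, and the second had 22 CpGs and 1 TGANTCA match just after the start. The TCF/LEF motif CTTTGAT, held by 2.6% of promoters, was not found in the 5 windows shown. These matches describe letters in the windows and do not show that a factor was bound.

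Each library held 34887069 to 41279816 counts. CTTN levels in CPM (counts scaled to library size, with TMM) were 299, 307 and 306 in the control libraries and 793, 1010 and 520 in CTTN libraries 1, 2 and 3, so the overexpressed gene was high in every CTTN library, with reads of the transgene included. CTTN library 3 stood apart on the first principal component, which held 67.4% of the variance, at -58.2 against -23.9 and 6.5 for CTTN libraries 1 and 2 and 20.5 to 28.3 for the controls. The sum of FPKM values was 704018, 605260 and 852256 in CTTN libraries 1, 2 and 3 and 603634 to 624680 in the controls. Summed CPM of 12 epithelial and HER2 markers was 18000 to 21700 in CTTN cells and 18000 to 18700 in control cells, with ERBB2 the most abundant, although CDH1 (E-cadherin) was near 0 at 0.105 ± 0.029 and 0.130 ± 0.101 FPKM (SD, n = 3). Of 8 fibroblast markers, 6 had a row of their own. These summed to 13.2 to 15.9 CPM in CTTN cells and 15.6 to 16.8 CPM in control cells, nearly all of it COL1A1. PDGFRA and COL3A1 share rows with other genes and were left out. The PDGFRA row, which also lists FIP1L1, had means of 66.0 CPM in CTTN cells and 67.0 CPM in control cells. Leukocyte markers summed to 3.38 to 4.31 and 2.67 to 3.15 CPM. Endothelial markers summed to 5.19 to 8.3 CPM against 16.5 to 18.5 CPM, nearly all of it CDH5, and the part of these markers in the results below was not tested. With edgeR's quasi-likelihood test and a Benjamini-Hochberg adjusted p under 0.05, 643 of 14409 genes tested (4.46%) were called, 350 (2.43%) higher and 293 (2.03%) lower in CTTN cells.

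CPA4 was higher in every CTTN library than in any control library. It had 3377, 3584 and 3020 counts in CTTN libraries 1, 2 and 3 and 1262, 1375 and 1186 counts in control libraries 1, 2 and 3. Scaled for depth, these were 95.4, 95.3 and 91.6 CPM against 35.7, 32.8 and 30.9 CPM. The groups were far apart and the spread within each was small, with means of 94.1 ± 2.18 and 33.1 ± 2.41 CPM (SD, n = 3), a ratio of 2.84. The fitted log2 fold change was 1.51 (SE 0.09, 95% interval 1.30 to 1.71). As CPA4 was chosen by this difference, its interval is a description and not a test. CPA4 levels were alike in the 3 CTTN libraries although CTTN itself ranged from 520 to 1010 CPM among them. On the FPKM scale, which corrects for transcript length, CPA4 stood above COPG2 in CTTN cells and below it in control cells. The CPA4 to COPG2 ratio of FPKM was 2.18, 2.36 and 2.21 in CTTN cells and 0.889, 0.838 and 0.869 in control cells.

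By fitted fold, CPA4 stood at rank 72 from the top of 14409 genes, and each gene with a larger fold was less abundant than CPA4. Among the 3610 genes whose mean abundance was at least that of CPA4, CPA4 was the 1 gene with so large a fold. CTTN, more abundant than CPA4, had a log2 fold change of 1.35 (SE 0.22). The genes just around CPA4 in rank were all less abundant. They were UPK3B, a uroplakin gene, at 3.35 to 4.79 against 1.19 to 1.82 CPM, PRAME, a cancer-testis antigen, at 8.14 to 8.83 against 2.81 to 3.1 CPM, PANX2, a pannexin channel gene, at 1.68 to 1.88 against 0.547 to 0.679 CPM, the transcript AP000439.3 at 1.03 to 1.21 against 0.365 to 0.424 CPM, and GTF2H2 at 1.2 to 1.3 against 0.368 to 0.521 CPM. GTF2H2, a subunit of TFIIH, has near-identical copies, so its counts are uncertain.

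**Figure D1:**
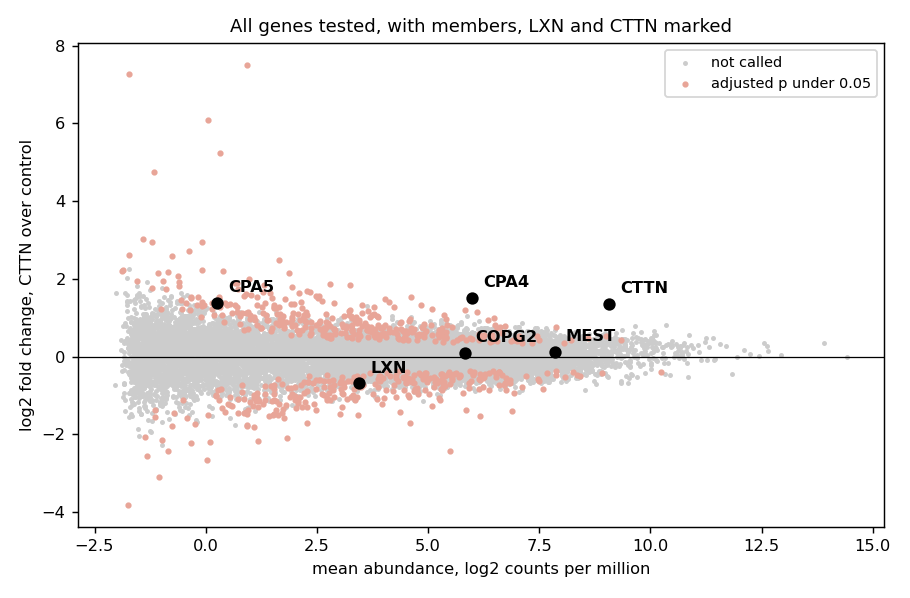
Log2 fold change of CTTN over control (y axis) against mean abundance in log2 CPM (x axis) for the 14409 genes tested, with genes of adjusted p under 0.05 in red. CPA4 lies above all other genes of its abundance or higher, and MEST and COPG2 lie near 0 at 0.13 and 0.10.

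The counts of CPA4 came nearly all from 1 start-site group, which held 99.7% ± 0.1 of them in CTTN cells and 99.7% ± 0.1 in control cells (SD, n = 3). This group begins at the promoter printed above. Its main transcript was ENST00000222482, with 11 exons. Its share of CPA4 counts was 57.9%, 83.5% and 33.5% in CTTN libraries 1, 2 and 3 and 81.5%, 69.2% and 80.6% in control libraries 1, 2 and 3. Another transcript, of 2571 bases against 2797, was matched by the authors to ENST00000493259, which lacks exons 2 and 3 in the GENCODE annotation. A second entry under that name, of 1512 bases, was at 0 in all libraries. The 2571-base transcript took 34.1%, 4.0% and 56.7% in CTTN cells and 7.7%, 24.1% and 7.8% in control cells. The shares of the groups overlapped, and the high shares of the 2571-base transcript were those of CTTN libraries 1 and 3, the same libraries whose FPKM sums were high, a link that was not tested. The gene-level count of CPA4 did not follow this split, being as high in CTTN library 2 as in CTTN library 1.

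CPA5, the next gene downstream of CPA4 and a paralog of it, was low in all cells but changed by a like ratio. It had 54, 61 and 62 counts in CTTN libraries 1, 2 and 3 and 23, 24 and 27 counts in control libraries 1, 2 and 3. The groups did not overlap, at 1.68 ± 0.183 against 0.642 ± 0.0661 CPM (SD, n = 3), a ratio of 2.61. The log2 fold change was 1.38 (SE 0.19, 95% interval 0.93 to 1.84), with an adjusted p of 0.016 by edgeR over all genes. The call depended on the libraries. The adjusted p was 0.0803 without CTTN replicate 1, and 0.0878, 0.119 and 0.0886 without control replicate 1, 2 or 3. In the same order, these fits called 0.218%, 0.198%, 0.102% and 0.109% of all genes tested, against 4.46% with all libraries. The adjusted p of CPA5 was 0.00313 without CTTN replicate 2 and 0.0118 without CTTN replicate 3, fits that called 47.1% and 8.55%. The log2 fold change of CPA5 stayed between 1.29 and 1.45 in all fits that left out 1 library.

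Counts of CPA4 and CPA5 kept a similar proportion in both groups. There were 62.5, 58.8 and 48.7 CPA4 counts per CPA5 count in CTTN cells and 54.9, 57.3 and 43.9 in control cells, ranges that overlapped. Annotated exons of the 2 genes shared no run longer than 15 bases, and none of the 3559 runs of 31 bases in CPA4 exons occurred in CPA5 exons. Transcripts that run on from CPA4 into CPA5 were not tested. The CPA5 counts were spread over 3 start-site groups. TSS113365 took 58.4% ± 14.2 of them in CTTN cells and 55.3% ± 5.5 in control cells (SD, n = 3), TSS113364 took 30.5% ± 13.9 and 34.5% ± 13.7, and TSS113366 took 11.2% ± 0.4 and 10.2% ± 8.2, so the shares did not differ beyond their spread.

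MEST, the most abundant of the 5 genes, differed little between the groups. It had 8626, 8947 and 7904 counts in CTTN libraries 1, 2 and 3 and 7704, 9364 and 8389 in control libraries 1, 2 and 3. After scaling for depth these were 244, 238 and 240 CPM against 218, 223 and 219 CPM. The scaled groups did not overlap, but the difference was small, with means of 240 ± 2.94 and 220 ± 2.89 CPM (SD, n = 3). The log2 fold change of 0.13 (SE 0.07, 95% interval -0.03 to 0.29) did not pass, with an edgeR adjusted p of 0.229. In FPKM, MEST was 6.91, 7.66 and 8.12 times the level of CPA4 in the control libraries and 2.85, 2.88 and 2.86 times in the CTTN libraries.

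The estimated start-site counts placed most MEST reads on the upstream side of the gene, where the non-imprinted promoter lies, in both groups. Start sites that lie 4959 to 5914 bases upstream of the start of ENST00000223215, the transcript of the imprinted CpG-island promoter, held 97.5%, 97.8% and 97.0% of MEST counts in CTTN cells and 97.4%, 96.8% and 97.4% in control cells. Start sites around or past the downstream promoter held 2.2% to 3.0% in CTTN cells and 2.6% to 3.2% in control cells, ranges that overlapped. Within the upstream side, the split between ENST00000341441 and ENST00000427521, whose starts lie 5914 and 5749 bases upstream, varied among CTTN libraries. ENST00000427521 took 23.4%, 11.4% and 44.4% in CTTN libraries 1, 2 and 3 and 18.3%, 14.9% and 13.8% in control libraries 1, 2 and 3. As for CPA4, the CTTN libraries 1 and 3 were high and the groups overlapped.

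COPG2 did not pass either. The row it shares with TSGA13 had 2154, 2173 and 1869 counts in CTTN libraries 1, 2 and 3 and 1983, 2401 and 1948 in control libraries 1, 2 and 3, which overlap. Means were 58.5 ± 2.16 and 54.7 ± 3.45 CPM (SD, n = 3), and the log2 fold change of 0.10 (SE 0.08, 95% interval -0.10 to 0.29) had an edgeR adjusted p of 0.432. The interval excludes a change as large as that of CPA4. TSGA13 added nothing to this row that could be seen. Its 4 transcripts were listed at 0 in all 6 libraries, and a count of 0 allows a level of up to 0.0727 to 0.086 CPM, for counting error only.

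Among the tested genes within 1 Mb, CPA4 and CPA5 had the largest folds. Within 1 Mb of CPA4, 32 of 51 genes had counts and 19 were tested. Of the 18 tested genes other than CPA4, 1 was called higher, CPA5, and none was called lower, where 2.43% and 2.03% of all genes tested were. With CPA4 and CPA5 set aside, 17 genes had log2 fold changes from -0.41 to 0.72 with a median of 0.043, against a median of 0.011 over all genes, and 3 of them (17.6%) had an unadjusted p under 0.05, against 30.2% of all genes. Within 5 Mb, CPA5 was again the 1 gene called of 58 tested other than CPA4, and the other 57 had log2 fold changes from -1.07 to 0.72. Under DESeq2, which called 14.4% of all genes tested, the row of LINC-PINT, a long noncoding RNA gene, was called too, with an adjusted p of 0.0119, and within 5 Mb so was ATP6V1F, a subunit of the vacuolar proton pump (0.56, adjusted p 0.0349). Without CTTN replicate 2, the library nearest the controls, 6925 of all 14692 genes tested (47.1%) were called. Among them were 5 genes other than CPA4 within 1 Mb, of which MKLN1 had a log2 fold change of -0.30, AC078846.1 -0.63, ZC3HC1 0.35 and the LINC-PINT row 0.57, all smaller in size than that of CPA5, at 1.40. With the same 47.1% of all genes called, that fit called 21 genes within 5 Mb, of which FAM71F2 (-2.0, adjusted p 0.00942) and the row of AC018638.8 (-1.98, adjusted p 0.00323) had larger changes than CPA5.

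On the centromeric side, SSMEM1 had 1 count in all. TMEM209, which encodes a nuclear envelope protein, had a log2 fold change of -0.13 (SE 0.11), KLHDC10, a substrate receptor of a ubiquitin ligase, -0.08 (SE 0.14), and ZC3HC1, a protein of the nuclear pore basket, 0.26 (SE 0.11, adjusted p 0.162 by edgeR). UBE2H, a ubiquitin-conjugating enzyme, was at -0.03 (SE 0.09) and NRF1, a transcription factor of nuclear genes for respiration, at 0.04 (SE 0.09). None of these passed. Further out, AC078846.1 was at -0.41 (SE 0.19), SMKR1 at -0.40 (SE 0.64) and STRIP2 at -0.25 (SE 0.15), and AC073320.1 had at most 2 counts in any library.

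On the telomeric side, CPA1 had 2 counts in CTTN library 1 and 0 elsewhere. CEP41, a centrosomal protein, had 1293, 1436 and 1280 counts in CTTN libraries 1, 2 and 3 and 1175, 1451 and 1235 in control libraries 1, 2 and 3, a log2 fold change of 0.18 (SE 0.08, edgeR adjusted p 0.17). It lies between the carboxypeptidases and MEST. MESTIT1, the antisense RNA at MEST, had 31, 39 and 33 counts in CTTN cells and 24, 26 and 18 in control cells. The groups did not overlap, and the log2 fold change of 0.72 (SE 0.23) had an adjusted p of 0.105 by edgeR. The counting strand is not given in the sources used here, so reads of MEST and of its antisense RNA cannot be told apart, and the same holds for the overlapping ends of MEST and COPG2. Of the noncoding rows nearby, AC007938.3 was at 0.62 (SE 0.28) and AC007938.1 at 0.10 (SE 0.65), neither of which passed, while AC007938.2, AC234644.1 and RF02149 were too low to test. Past COPG2, the maternally expressed KLF14 had 1 count, in CTTN library 3. The row of LINC-PINT, which also lists MIR29A and MIR29B1, was at 0.50 (SE 0.12, edgeR adjusted p 0.068), MKLN1, a kelch-repeat protein, at -0.13 (SE 0.14), and MKLN1-AS at -0.30 (SE 0.19). AC058791.1, AC009362.1, AC016831.5, AC008264.2 and LINC00513 had at most 5 counts in any library.

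Among 23 metallocarboxypeptidase genes, all present in the table, 10 could be tested. Of the 9 other than CPA4, 2 were called higher and none lower, where 2.43% and 2.03% of all genes tested were, with a median log2 fold change of 0.30 against 0.011 over all genes. These were CPA5 and AEBP1. AEBP1 encodes a carboxypeptidase-like protein. Its row, which also lists MIR4649, stood at 2.71, 2.74 and 3.22 CPM in CTTN libraries 1, 2 and 3 and 1.56, 1.88 and 1.72 CPM in control libraries 1, 2 and 3. Its log2 fold change was 0.74 (SE 0.15, edgeR adjusted p 0.0465). The call of AEBP1 was lost without CTTN replicate 1 (adjusted p 0.17) and without control replicate 1, 2 or 3 (0.192, 0.18 and 0.193). Those fits called 0.102% to 0.218% of all genes tested. CPE, which trims prohormones, was at 0.38 (SE 0.09, edgeR adjusted p 0.0676), and CPD, its relative in the trans-Golgi network, at -0.29 (SE 0.16, adjusted p 0.233). CPA3, CPA6, CPB1, CPN1 and AGBL1 were at 0 in all libraries.

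LXN encodes latexin, a protein inhibitor of the A-type carboxypeptidases, and was lower in CTTN cells. It stood at 7.88, 7.66 and 9.49 CPM in CTTN libraries 1, 2 and 3 and at 14.6, 12.8 and 12.9 CPM in control libraries 1, 2 and 3. The groups did not overlap, and the log2 fold change was -0.69 (SE 0.12, 95% interval -0.97 to -0.41) with an edgeR adjusted p of 0.0282. This call too was lost without CTTN replicate 1 (adjusted p 0.157) and without control replicate 1, 2 or 3 (0.138, 0.131 and 0.125). Those fits called 0.102% to 0.218% of all genes tested. In FPKM, CPA4 was 6.09, 6.54 and 4.89 times the level of LXN in CTTN libraries 1, 2 and 3 and 1.26, 1.37 and 1.28 times in control libraries 1, 2 and 3. The other inhibitor listed, RARRES1, had 1 count in all.

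Imprinted genes elsewhere in the genome did not move one way. Of 27 tested more than 1 Mb from CPA4, 2 were called higher and 1 lower, where 2.43% and 2.03% of all genes tested were. Their median log2 fold change was 0.08, against 0.011 over all genes, and 13 of the 27 had an unadjusted p under 0.05, against 30.2% of all genes. H19, a maternally expressed noncoding RNA whose row also lists MIR675, rose from 42.0, 42.7 and 44.8 CPM in control libraries 1, 2 and 3 to 95.9, 84.4 and 104 CPM in CTTN libraries 1, 2 and 3, a log2 fold change of 1.14 (SE 0.10, edgeR adjusted p 0.00413). NDN, a paternally expressed gene of the Prader-Willi region, rose from 0.537, 0.453 and 0.599 CPM to 1.19, 1.12 and 1.67 CPM, a log2 fold change of 1.32 (SE 0.25, edgeR adjusted p 0.0365). PLAGL1, a paternally expressed zinc-finger gene that shares its row with HYMAI, fell from 1.30, 1.29 and 2.32 CPM to 0.367, 0.559 and 0.121 CPM, a log2 fold change of -2.19 (SE 0.47, edgeR adjusted p 0.049). Maternally and paternally expressed genes were thus both among those that rose. The calls of H19, NDN and PLAGL1 were lost without control replicate 1, 2 or 3, where the adjusted p was 0.0512, 0.0553 and 0.052 for H19, 0.156, 0.194 and 0.145 for NDN and 0.148, 0.178 and 0.194 for PLAGL1. Without CTTN replicate 1 it was 0.138 for NDN and 0.198 for PLAGL1, and 0.0499 for H19. The fits without CTTN replicate 1 or any control called 0.102% to 0.218% of all genes tested. Over 12 alternatives, H19 was called in 9, NDN in 5 and PLAGL1 in 4. The call of PLAGL1 was also lost without TMM (edgeR adjusted p 0.0615). With limma on log2(FPKM + 1) the log2 fold change was -0.51 for PLAGL1 and 0.45 for NDN, neither called. With CPA4 set aside, the list had 3 calls with all libraries, 17 without CTTN replicate 2 and 8 without CTTN replicate 3, fits in which 4.46%, 47.1% and 8.55% of all genes tested were called.

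The COPI coat, the complex that COPG2 belongs to, was not called in any of its 9 tested rows by edgeR or by DESeq2 with all libraries, and 1 row had an unadjusted p under 0.05, as 30.2% of all genes did. COPG1, the paralog of COPG2, was at -0.13 (SE 0.09), ARCN1, the delta subunit, at -0.32 (SE 0.15) and COPZ1, a zeta subunit, at 0.14 (SE 0.13). In FPKM, COPG1 stood at 48.4 ± 2.77 in CTTN cells and 49.8 ± 0.617 in control cells (SD, n = 3), above COPG2 at 18.0 ± 1.05 and 17.1 ± 0.678. Without CTTN replicate 2, 4 of the COPI rows were called, where 47.1% of all genes tested were.

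The genes most like CPA4 across the 6 libraries, by Pearson's r of log2(CPM + 1), were TEX19 at 0.9993, CYP1A1 at 0.9977, GYG2 at 0.9969, PRAME at 0.9961 and TANGO2 at 0.9954. The 6 points form the 2 groups, so a high r marks a gene with a difference between groups that is large beside its spread. TEX19, a germline gene, stood at 19.7, 19.7 and 19.4 CPM in CTTN cells and 10.2, 9.77 and 8.96 CPM in control cells. CYP1A1, a cytochrome P450 of xenobiotic metabolism, stood at 6.47, 6.44 and 6.34 CPM and at 2.09, 2.07 and 2.03 CPM. GYG2, a glycogenin that primes glycogen, stood at 12.6, 13.7 and 13 CPM and at 6.28, 5.43 and 5.39 CPM. TANGO2, whose loss causes a metabolic disease, had a log2 fold change of just 0.18 (SE 0.07) and its CTTN libraries all stood at 37.2 CPM, against 33.1, 32.3 and 32.7 CPM in control cells.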

How the data were processed

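Poly(A)-selected RNA of the 6 samples was sequenced as paired ends from a stranded kit. Per the submitters' processing notes, the authors used bcl2fastq 2.20.0, Trimmomatic, STAR and Cufflinks with GRCh38, and the deposited loci match that build, whereas the study's methods name hg19 and Cutadapt. The deposited count tables hold counts divided by a per-library scale. Multiplied back by the scale in the deposited sample table, 100% of gene values under 5000 were whole within 0.05, and these whole counts were tested. The deposited FPKM values were made by the authors with Cufflinks and scale counts by transcript length and depth. The deposited start-site and transcript tables hold estimated counts, which the authors' Cufflinks run divided among transcripts and which need not be whole.

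Control columns were used by group, since the labels number them differently from the tables. Genes were fitted with edgeR 4.0.16 (R 4.3.3): filterByExpr, TMM, glmQLFit and glmQLFTest with group as the only term, and Benjamini-Hochberg adjustment over 14409 genes. Called means an adjusted p under 0.05. SEs and intervals derive from the F statistic. The scripts were tested on simulated data. Alternatives were DESeq2 1.42.0, no filter, leaving out each library, a replicate block, limma 3.58.1 on log2(FPKM + 1) and log2(FPKM + 0.1), deposited counts without TMM, and a 1.5-fold minimum. The members, gene lists and motifs were chosen with earlier results of these data known. Genes named were the members, CTTN, called list members, all genes with counts within 1 Mb of CPA4 (by locus start; 1 of them is not reported here), the 5 most like CPA4 and the 5 around it by fold; others are named as examples chosen after their values were seen. Exons and distances between MEST starts come from GENCODE on GRCh37, without its coordinates. Tables of coding sequences were not used here. Depth was 34887069 to 41279816 counts per library.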

Additional observations from a re-analysis of the deposited data

How the results depend on the processing

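The log2 fold change of CPA4 lay between 1.39 and 1.55 over 12 alternatives, the lowest being limma on log2(FPKM + 1), 1.39, where the pseudocount itself reduces it. Those of MEST (0.06 to 0.14) and COPG2 (0.04 to 0.13) stayed uncalled in all 12. The log2 fold change of CPA5 was above 0 in all 12, from 0.77 with limma on log2(FPKM + 1) to 1.45, and was called in 6. Leaving out 1 library gave 1.29 to 1.45, and the call was lost with the replicate block (1.38, adjusted p 0.0678) and with limma on log2(FPKM + 0.1) (1.38, adjusted p 0.0721). The cause was not tested.

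Counts of calls depended on the libraries. CPA4 is not counted in the windows and lists. Leaving out 1 library at a time gave 10 to 3366 genes higher and 5 to 3559 lower, 0 to 5 within 1 Mb of CPA4, 0 to 21 within 5 Mb, 0 to 4 metallocarboxypeptidases, 0 to 1 carboxypeptidase inhibitor, 0 to 17 imprinted genes, 0 to 4 COPI rows and 0 to 4 HDAC-inhibitor-responsive genes. Each highest count occurred without CTTN replicate 2, where 47.1% of all genes tested were called. Leaving out CTTN replicate 3, where 8.55% were called, also gave 4 metallocarboxypeptidases and 1 inhibitor. The 2 counts over all genes were 5 to 20 without CTTN replicate 1 or any control. DESeq2 called 1076 higher and 998 lower (14.4% of all), 2 within 1 Mb, 3 within 5 Mb and 11 imprinted genes. No filter on low counts called 539 higher and 437 lower (3.78% of 25834 genes tested), and 6 imprinted genes. Limma called 106 higher and 79 lower with a pseudocount of 1 (1.28% of all), and 107 and 73 with 0.1 (1.25%). With either it called 1 imprinted gene and 0 HDAC-inhibitor-responsive genes. It called 1 metallocarboxypeptidase with a pseudocount of 1, and with 0.1 it called 0, as in both windows. The 1.5-fold minimum, which left 3.32% of all genes called, left 0 HDAC-inhibitor-responsive genes.

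Same-numbered libraries of the 2 groups did not deviate together (r of deviations 0.02, 0.08 and -0.19). With 3 libraries a group and control columns numbered differently in the labels, these values cannot show whether the numbers mark a pairing. Numbering followed the deposited sample table, chosen after seeing the data. The replicate block gave 51 genes higher and 54 lower (0.729% of all genes tested). It called 0 genes in either window, 0 metallocarboxypeptidases, 0 inhibitors, 1 imprinted gene and 0 HDAC-inhibitor-responsive genes. Precision for CPA5 rests on 23 to 62 counts a library.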

Other observations

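CPA4 was first known as a gene raised by histone deacetylase (HDAC) inhibitors, so 18 genes of that class or encoding HDACs were looked at, of which 15 could be tested besides CPA4. H1F0, the linker histone H1.0, was the 1 gene called among these 15, where 4.46% of all genes tested were called. It was higher in CTTN cells at 731, 719 and 761 CPM in CTTN libraries 1, 2 and 3 against 573, 547 and 535 CPM in control libraries 1, 2 and 3. The groups did not overlap, and its log2 fold change was 0.42 (SE 0.08, edgeR adjusted p 0.0324). The call was lost without CTTN replicate 1 or any control replicate (adjusted p 0.153 to 0.191), fits that called 0.102% to 0.218% of all genes tested. CDKN1A, the cell cycle inhibitor p21, had a log2 fold change of 0.24 (SE 0.12, adjusted p 0.203), TXNIP, a thioredoxin inhibitor, -0.25 (SE 0.10, adjusted p 0.141) and KLF4 -0.02 (SE 0.09, adjusted p 0.878). HDAC1 and HDAC2, the class I deacetylases, were at 0.01 (SE 0.08) and 0.02 (SE 0.09), and HDAC11 at 0.19 (SE 0.11, adjusted p 0.251). The list's median without CPA4 was 0.06, against 0.011 over all genes.

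PHLDA2, an imprinted gene expressed from the maternal allele and known for restraining placental growth, had 1067, 902 and 1465 counts in CTTN libraries 1, 2 and 3 and 528, 631 and 709 in control libraries 1, 2 and 3, groups that did not overlap, but its log2 fold change of 1.02 (SE 0.23) did not pass, with an edgeR adjusted p of 0.053. It was called under 5 alternatives, with adjusted p values of 0.000692 under DESeq2, 0.00969 with no filter, 0.00176 without CTTN replicate 2, 0.0112 without CTTN replicate 3 and 0.0482 without TMM. In the same order, these fits called 14.4%, 3.78%, 47.1%, 8.55% and 3.79% of all genes tested. TFPI2, an inhibitor of serine proteases imprinted on chromosome 7q21, was at -1.63 (SE 0.37, edgeR adjusted p 0.056). It was called under 4 alternatives, with adjusted p values of 0.00303 under DESeq2, 0.0215 with no filter, 0.0159 without CTTN replicate 2 and 0.0491 without CTTN replicate 3. In the same order, these fits called 14.4%, 3.78%, 47.1% and 8.55% of all genes tested. CDH5, the cadherin of endothelial cells, had 187, 268 and 146 counts in CTTN cells and 544, 704 and 585 in control cells, a log2 fold change of -1.49 (SE 0.17, edgeR adjusted p 0.00843), while VWF, another endothelial marker, was at -0.69 (SE 0.28, adjusted p 0.154) and PECAM1, KDR and TEK were too low to test.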
